A study of Mus musculus with 4 samples.

Results

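Cyclins, cyclin-dependent kinases (CDKs) and CDK inhibitors were examined in RNA that came down with Cpeb4 from the V-SVZ (ventricular-subventricular zone), which lines the lateral ventricles and makes new neurons. The members were chosen by a rule on gene symbols, with earlier results of these data known. The rule took cyclins (Ccn followed by a letter), the cyclin D-binding protein gene Ccndbp1 and Cdk genes with a number. It also took the Cdkn inhibitor genes and the cyclin-dependent kinase-like genes Cdkl1 to Cdkl4. This gave 54 genes of the 53379 in the deposited table. One Cdkn gene is not part of the set. By role there were 11 cell cycle cyclins, 7 transcriptional cyclins, 7 other cyclins and partners, 4 cell cycle kinases, 6 transcriptional kinases, 8 other kinases, 7 inhibitors and 4 Cdkl kinases.

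All tissue came from wild-type mice of the CD1 stock aged 7 or 8 days (P7/P8). Lysates were immunoprecipitated with anti-Cpeb4 or with control anti-IgG antibody in 2 experiments, each giving 1 library per antibody. There was thus no perturbed genotype, and IgG measures the background of RNA recovered without the specific antibody. No library of input RNA was included, so levels and abundance here are those in the recovered RNA, not in the tissue. The labels do not say whether the experiments used separate animals or pooled ones, so the p-values cover only how far these libraries spread, and that spread may be technical. A whole-tissue lysate mixes cell types, and fewer cells of a type and less RNA per cell cannot be told apart.

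Cyclins bind and activate CDKs. Cyclins D, E, A and B with Cdk4, Cdk6, Cdk2 and Cdk1 drive the phases of the cell cycle, and proteins of the Ink4 and Cip/Kip families inhibit them. Cyclins C, H, K, L and T pair with kinases that act on RNA polymerase II or on the Mediator complex, so they serve transcription and RNA processing. Cpeb4 belongs to a family of proteins that bind U-rich elements in 3′ untranslated regions and regulate poly(A) tail length and translation. Cyclin mRNAs stored in oocytes are textbook targets of cytoplasmic polyadenylation. In the postnatal V-SVZ, stem cells, transit amplifying cells and neuroblasts divide while their progeny leave the cycle.

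Depth was 24483742 to 35037171 reads on genes in the Cpeb4 libraries and 22486721 to 24094241 in the IgG libraries. Levels are FPKM (fragments per kilobase of gene, scaled for depth), and differences are Cpeb4 minus IgG in log2(FPKM + 1), where the changes of genes with low values come out too small. A gene was tested when at least 2 libraries reached 1 FPKM, and called when its limma Benjamini-Hochberg adjusted p, over all 15745 genes tested, was under 0.05. Cpeb4 mRNA itself was at 26.7 and 38.3 FPKM in the Cpeb4 libraries of experiments 1 and 2 and at 9.04 and 9.66 in IgG. Tissue markers fitted the labelled V-SVZ: the neuroblast genes Dcx and Sox11 and the stem cell gene Sox2 were at 23.2 to 79.9 FPKM in every library. These markers were not even between antibodies. Of 5 neuroblast markers 4 were higher with Cpeb4 and 1 was not called, and of 5 stem cell markers 4 were higher and Nes was lower. Dcx (log2 1.56), Sox11 (1.20), Cd24a (0.91), Sox2 (0.90) and Slc1a3 (0.997) were higher under all 5 scalings. Nes (-0.40) was lower under all 5, but scalings other than the authors' shift differences down, so this is no check of a lower call. Of 3 mature neuron markers, Syt1 was higher under all 5 scalings (log2 0.96), Snap25 with the authors' scaling only and Rbfox3 was not called. Of 4 markers of dividing cells, Pcna and Top2a were higher with Cpeb4 (log2 0.82 and 0.32), Mki67 lower (-0.62) and Mcm2 not called, so these markers had no common direction; Top2a was called higher only with the authors' scaling. Markers of ependymal, microglial, endothelial, choroid plexus and erythroid cells were also present, with 5 of 13 lower and the other 8 not called. All 4 oligodendrocyte markers were higher with the authors' scaling, of which 1 kept its call under 4 scalings and none under all 5. The part of these cells in the results was not tested.

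Of the 54 members, 50 were tested, 31 were higher in Cpeb4 immunoprecipitates, 2 were lower and 17 were not called. Over all genes tested, 38.8% were called higher and 11.6% lower. Of the 50 tested members, 12 were called higher with a difference of at least 2-fold on the FPKM + 1 scale, as were 10.8% of all genes tested. The largest differences belonged to cyclin I (Ccni), cyclin G1 (Ccng1), cyclin C (Ccnc), the inhibitor Cdkn1b, cyclin H (Ccnh), Cdk14 and cyclin G2 (Ccng2). The lower genes were the mitotic cyclin B2 (Ccnb2) and cyclin F (Ccnf). The median log2 difference was 0.42 for the members and 0.19 for all genes tested. In a separate fit limited to genes with at least 5 FPKM in at least 2 libraries, 45 members were tested and 31 were higher. These left out Cdk12 and held 1 member not called above. Of all genes in that fit, 51.3% were higher and 9.28% lower. Genes could pass this minimum through the Cpeb4 libraries alone, as Cdkn1b, Cdk13, Cdkl1, Cdk6 and Cdk2 (not called in the main fit) did. The shares of higher genes in it may thus be partly set by the minimum.

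**Figure D1:**
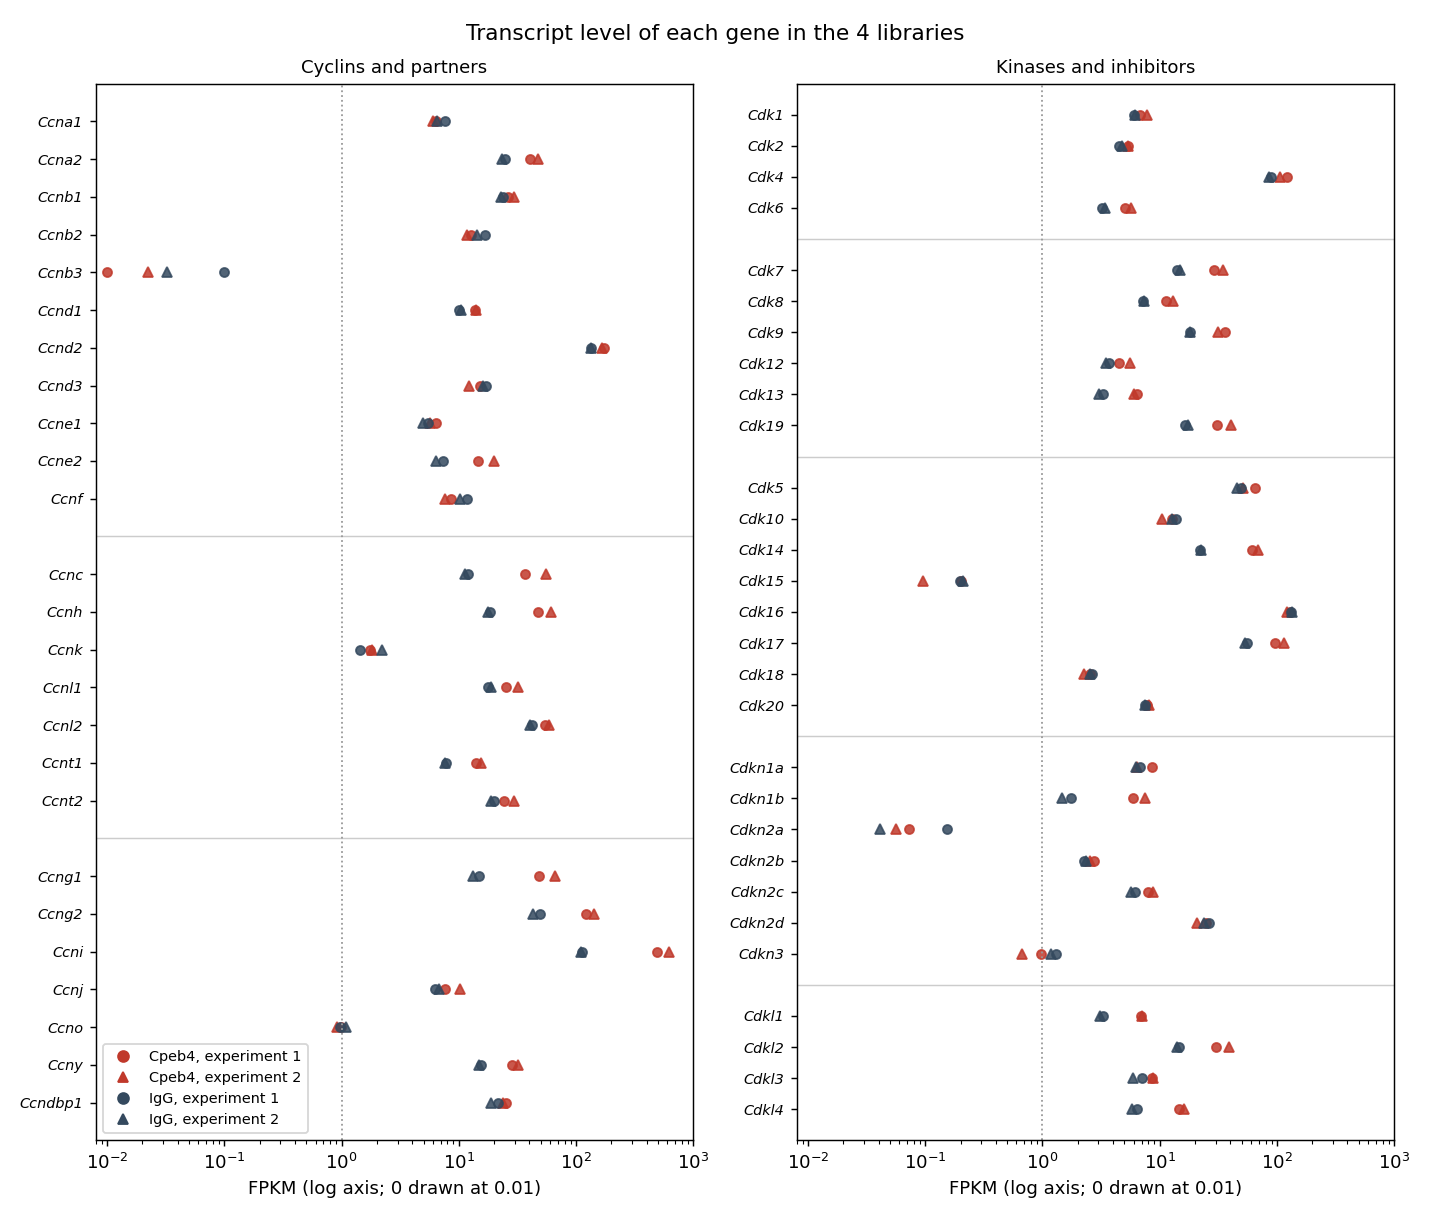
FPKM (log axis) of each gene in the 4 libraries, Cpeb4 in red and IgG in dark blue, with circles for experiment 1 and triangles for experiment 2; grey lines separate the roles and the dotted line marks 1 FPKM. Ccni lies farthest right at 495 and 623 FPKM with Cpeb4, while Ccnb3, Cdk15 and Cdkn2a stay below 1 FPKM in all libraries.

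How many members counted as higher depended on the scaling of the libraries. With the libraries scaled to read totals 19 members were higher and 10 lower (all genes 17.5% and 42.4%), and the upper quartile gave 19 and 10 (all genes 20.6% and 37.2%). Trimmed mean of M-values gave 22 and 8 (all genes 25.6% and 25.6%), and setting the median tested gene to the same level in each library gave 20 and 8 (all genes 23.6% and 29.9%). These scalings moved the median of all genes from 0.19 to between -0.24 and -0.04. The members' median stayed above it by 0.24 with the authors' scaling and by 0.18 to 0.21 under the other 4. The same 19 genes were higher under all 5 scalings, against 17.5% of all genes, and both lower genes were lower under all 5 (all genes 11.6%). The other 4 scalings shift differences down, so keeping a lower call is no check. Over all genes, 1822 were lower with the authors' scaling and 1822 under all 5. For higher genes the criterion is nearly the read-totals call alone, with 2759 genes higher there and 2758 under all 5.

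These 19 were Ccna2 and Ccne2 among cell cycle cyclins, Ccnc, Ccnh and Ccnt1 among transcriptional cyclins, Ccng1, Ccng2, Ccni and Ccny among the others, the transcriptional kinases Cdk7, Cdk9, Cdk13 and Cdk19, the kinases Cdk14 and Cdk17, the inhibitor Cdkn1b, and Cdkl1, Cdkl2 and Cdkl4. They were also called higher under every alternative fit that was run, leaving out each library included. The other 12 higher calls were lost under at least 1 scaling, and 9 of them (Ccnd1, Ccnd2, Ccnl2, Ccnt2, Ccnj, Cdk4, Cdk12, Cdkn2c and Cdkl3) had a negative sign with read totals. Leaving out IgG replicate 1 left 20 members higher and 0 lower, and leaving out IgG replicate 2 left 22 and 0; by unadjusted p under 0.05 limma then gave 0 and 2 lower members. The 2 Cpeb4 libraries, which supplied the spread in those fits, differed more from each other than the IgG libraries did (chi-square divided by its degrees of freedom 20.2 and 4.28). Where spread exceeds counting noise, this measure also grows with read number, and the Cpeb4 libraries held more reads. Without Cpeb4 replicate 1 the counts were 33 and 5 (all genes 41.5% and 15.9%), and without Cpeb4 replicate 2 they were 32 and 1 (all genes 41.4% and 11.9%). For all genes, 26.5% were higher and 5.98% lower without IgG replicate 1, and 25.3% and 5.51% without IgG replicate 2. Without the experiment block 30 members were higher and 1 lower (all genes 38.2% and 10.9%). A pseudocount of 0.1 gave 31 and 2 (38% and 10.9%), limma-voom on recovered reads 31 and 2 (41.2% and 11.8%), and no filter on low values 22 and 0 (8.35% and 1.87%), with 2 lower by unadjusted p under 0.05.

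**Figure D2:**
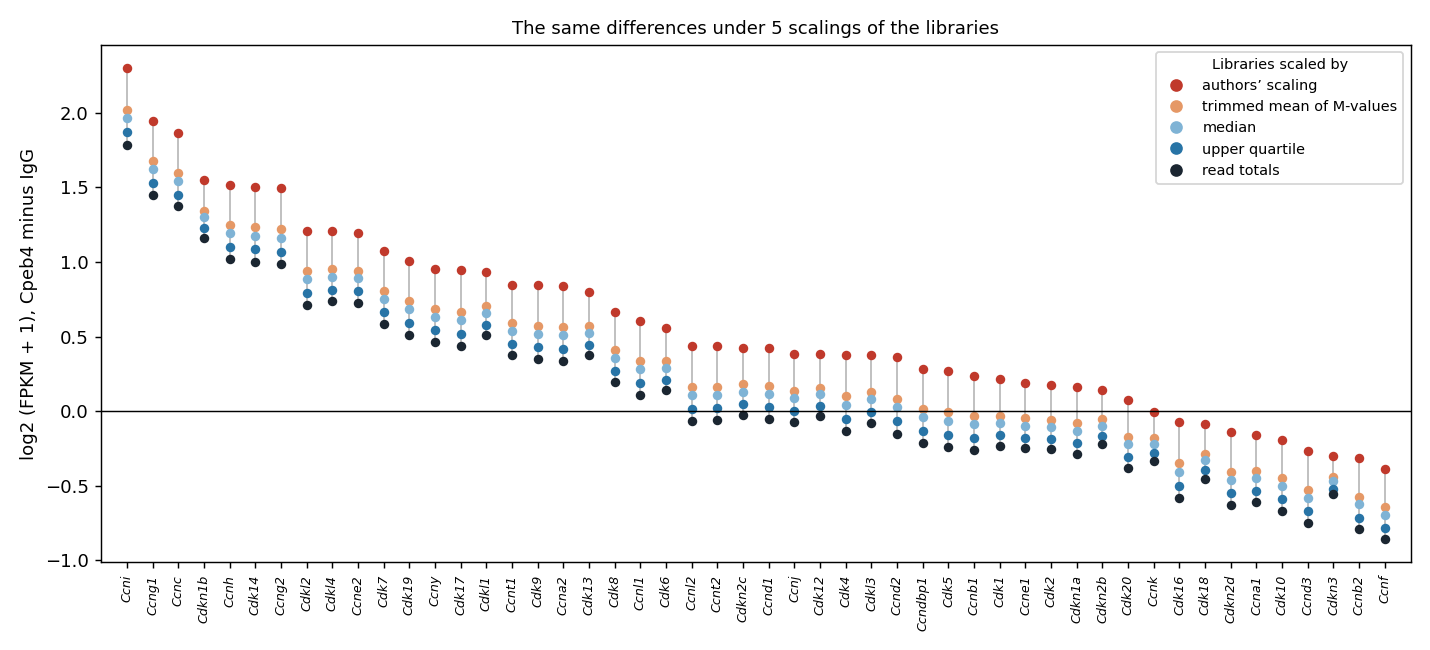
Log2(FPKM + 1) difference, Cpeb4 minus IgG, of the 50 tested members under the authors' scaling and 4 others, in order of the authors' value; each column is 1 gene and each dot 1 scaling. Ccni ranges from 1.78 with read totals to 2.30 with the authors’ scaling, and several members with small differences cross zero, among them Ccnd2 from 0.36 to -0.15.

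Among the cell cycle cyclins, cyclin E2 (Ccne2), which activates Cdk2 at the entry to S phase, had the largest difference. It was at 14.5 and 19.9 FPKM in the Cpeb4 libraries and at 7.37 and 6.38 in IgG (log2 1.20, SE 0.15, limma adjusted p = 4.84e-06). Its span overlaps Ints8, which was also higher (log2 0.91), and reads shared by both cannot be assigned because the libraries carry no strand. Its paralog Ccne1 was at 6.42 and 5.72 against 5.41 and 4.98 FPKM and was not called (limma adjusted p = 0.239). Cyclin A2 (Ccna2), the S phase and mitotic cyclin of dividing somatic cells, was at 40.1 and 47.3 FPKM with Cpeb4 and 24.7 and 23.3 with IgG. Both Cpeb4 libraries lay well above both IgG libraries, at a log2 difference of 0.84 (SE 0.13, limma adjusted p = 4.88e-05). Cyclin A1 (Ccna1), known mainly from the germline, was lower in both Cpeb4 libraries (6.41 and 6.04 against 7.63 and 6.52 FPKM); it was not called with the authors' scaling and was called lower under the other 4.

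The mitotic cyclins did not follow cyclin A2. Ccnb1 was at 26.0 and 29.4 FPKM with Cpeb4 and 23.8 and 22.9 with IgG, and was not called (log2 0.24, limma adjusted p = 0.126); its value was negative under each of the other 4 scalings. Ccnb2 was at 12.7 and 11.8 against 16.8 and 14.2 FPKM, both Cpeb4 libraries below both IgG libraries (log2 -0.31, SE 0.12, limma adjusted p = 0.0449). Without the experiment block the Ccnb2 call was lost (limma adjusted p = 0.0591), as it was without Cpeb4 replicate 2 (log2 -0.26, limma adjusted p = 0.0692). Ccnf, the F-box cyclin of a ubiquitin ligase, was at 8.65 and 7.64 against 11.7 and 10.3 FPKM (log2 -0.39, SE 0.12, limma adjusted p = 0.0151). Ccnb2 and Ccnf both lost their calls when either IgG library was left out and with no filter on low values. Ccnb1 and Ccnb2 have pseudogenes in RefSeq, so their counts are uncertain where copies share reads.

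The D cyclins, which couple growth signals to Cdk4 and Cdk6, were dominated by Ccnd2. Its level of 175 and 168 FPKM with Cpeb4 and 133 and 133 with IgG stood about an order of magnitude above Ccnd1, at 13.8 and 14.1 against 9.94 and 10.4 FPKM. Both genes were called higher with the authors' scaling only, at log2 0.36 (SE 0.14) and 0.42 (SE 0.12), and both were negative with read totals (-0.15 and -0.05). Ccnd3 went the other way at 15.2 and 12.3 against 17.1 and 16.2 FPKM. It was not called (log2 -0.27, limma adjusted p = 0.0878), but was called lower under the other 4 scalings. Ccnd3 also has a pseudogene in RefSeq, so its count is uncertain where copies share reads. Ccnb3 stayed at 0 to 13 reads per library and was not tested.

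Among the transcriptional cyclins, cyclins C and H stood apart. Cyclin C (Ccnc), the partner of Cdk8 and Cdk19 in the Mediator kinase module, was at 36.8 and 54.9 FPKM with Cpeb4 and 12.1 and 11.2 with IgG. The Cpeb4 libraries were thus both above 3 times the IgG level, the second one farther (log2 1.86, SE 0.15, limma adjusted p = 9.52e-08). Cyclin H (Ccnh), which with Cdk7 forms the CDK-activating kinase of the transcription factor TFIIH, was at 47.3 and 60.8 against 18.4 and 17.8 FPKM (log2 1.52, SE 0.13, limma adjusted p = 1.93e-07). Cyclin T1 (Ccnt1), of the elongation factor P-TEFb, was at 14.0 and 15.3 against 7.71 and 7.68 FPKM (log2 0.85, SE 0.12, limma adjusted p = 3.14e-05). All 3 kept their calls under all 5 scalings.

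The other transcriptional cyclins differed less. Ccnt2, the second P-TEFb cyclin, was at 24.1 and 29.7 against 20.1 and 19.0 FPKM. The cyclin L genes, whose products bind Cdk11 and act in splicing, were at 25.3 and 31.8 against 17.8 and 18.8 FPKM for Ccnl1 and at 54.0 and 59.3 against 42.4 and 40.7 for Ccnl2. Their log2 differences were 0.43, 0.60 and 0.44; Ccnt2 and Ccnl2 were called with the authors' scaling only and had negative values with read totals. Ccnk, the cyclin of Cdk12 and Cdk13, was at 1.75 and 1.82 FPKM with Cpeb4 and 1.45 and 2.19 with IgG, at 101 to 166 reads per library. Its groups overlapped and its difference was near 0 (SE 0.16, limma adjusted p = 0.988).

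Set side by side, 6 of 7 transcriptional cyclins and 4 of 10 tested cell cycle cyclins were higher, and 0 and 2 were lower. Their median log2 differences were 0.60 and 0.21, beside 0.19 for all genes tested. The cell cycle median lay 0.39 below the transcriptional one, by 0.32 in experiment 1 and 0.47 in experiment 2. Under the other 4 scalings this gap was 0.36 to 0.38, since scaling shifts both lists together. Under all 5 scalings, 3 of 7 transcriptional and 2 of 10 cell cycle cyclins were higher. Of all genes tested, 38.8% were higher and 11.6% lower, so the share of higher cell cycle cyclins was near that of all genes. Likewise 17.5% of all genes were higher under all 5 scalings. These lists are short and their ranges overlap (Ccne2 exceeded 5 of the transcriptional cyclins), and the gap between lists was not tested.

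**Figure D3:**
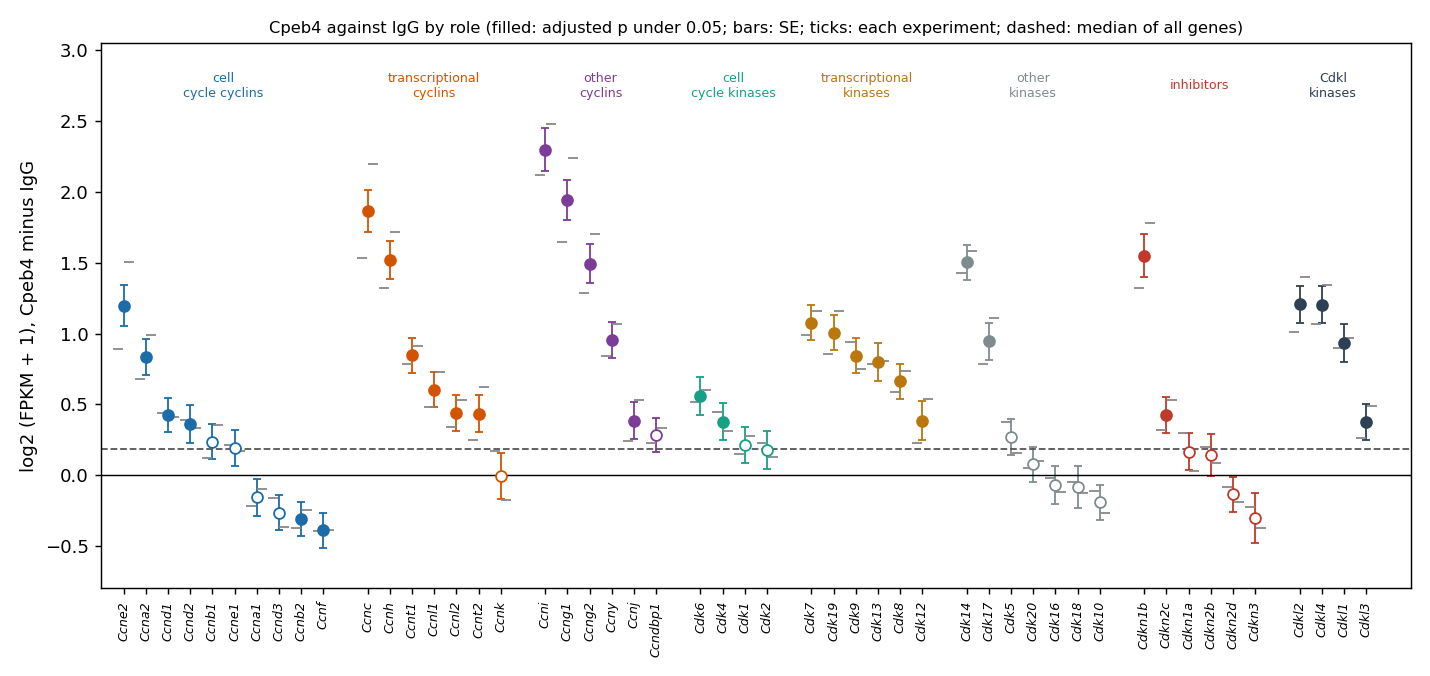
Log2(FPKM + 1) difference, Cpeb4 minus IgG, by role; dots are limma estimates with SE bars, filled where the adjusted p was under 0.05, grey ticks left and right are experiments 1 and 2, and the dashed line is the median of all genes tested (0.19). All 6 transcriptional kinases and all 4 Cdkl kinases are filled above the line (38.8% of all genes tested were higher). The cell cycle cyclins run from Ccne2 at 1.20 down to Ccnf at -0.39.

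The 2 largest differences of the whole set lay among the remaining cyclins, in Ccni and Ccng1. Cyclin I (Ccni; chr5:93181933-93206495, GRCm38), an atypical cyclin expressed in postmitotic cells including neurons, was at 495 and 623 FPKM with Cpeb4 and 113 and 111 with IgG. On the FPKM + 1 scale this was a 4.92-fold difference (log2 2.30, SE 0.15; limma adjusted p = 4.4e-08), and no other member differed as much. Among the members it ranked at place 3 by FPKM in both IgG libraries and at place 1 in both Cpeb4 libraries, where it made up 24.8% and 28.01% of the members' summed FPKM against 10.07% and 10.21% in IgG. Without Ccni the summed FPKM of the members was 1499.7 and 1602 with Cpeb4 against 1012 and 975 with IgG. Its span overlaps Septin11, which was higher too, at a smaller log2 difference of 0.84.

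Cyclin G1 (Ccng1; chr11:40748552-40755309), a p53 target gene, was at 48.7 and 65.8 FPKM with Cpeb4 and 14.9 and 13.1 with IgG (log2 1.94, SE 0.14, limma adjusted p = 6.15e-08). Its relative cyclin G2 (Ccng2), a FoxO target linked to cell cycle exit, was at 121 and 141 against 49.0 and 42.7 FPKM (log2 1.49, SE 0.14, limma adjusted p = 3.37e-07). In both genes each Cpeb4 library exceeded each IgG library more than 2-fold. Cyclin Y (Ccny), a membrane-bound activator of Cdk14 and Cdk16, was at 28.5 and 32.1 against 15.4 and 14.8 FPKM (log2 0.95, SE 0.12). Ccnj was called at log2 0.39 with the authors' scaling only, and was negative with read totals. Ccndbp1, a helix-loop-helix protein that binds cyclin D, was at 25.5 and 24.0 against 21.6 and 18.8 FPKM and was not called (limma adjusted p = 0.0646). Ccno, known for multiciliated cells, stayed between 0.915 and 1.09 FPKM and was not tested.

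The cell cycle kinases differed little. Cdk4, the most abundant of them, was at 122 and 107 FPKM with Cpeb4 and 89.2 and 85.8 with IgG (log2 0.38, SE 0.13, limma adjusted p = 0.0244). This call was lost under each of the other 4 scalings, with a negative sign for read totals (-0.13) and the upper quartile (-0.05). Cdk6 was at 5.02 and 5.73 against 3.21 and 3.44 FPKM (log2 0.56, SE 0.13), called with the authors' scaling and trimmed mean of M-values. Cdk1, the mitotic kinase, at 6.83 and 7.74 against 6.06 and 6.20 FPKM, and Cdk2, at 5.39 and 5.32 against 4.45 and 4.80, were not called (limma adjusted p = 0.18 and 0.283). Both had negative values under the other 4 scalings.

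All 6 transcriptional kinases were higher with the authors' scaling, 4 of them under all 5 scalings (all genes 38.8% and 17.5%). Cdk7, of TFIIH, was at 29.0 and 34.8 FPKM with Cpeb4 and 14.1 and 15.0 with IgG (log2 1.08, SE 0.12, limma adjusted p = 2.56e-06). Cdk19 was at 30.8 and 40.2 against 16.6 and 17.5 FPKM (log2 1.01), and its Mediator paralog Cdk8 at 11.2 and 12.9 against 7.16 and 7.35 (log2 0.66). Both Cpeb4 libraries were above both IgG libraries for each of these kinases. Cdk9, the P-TEFb kinase, was at 35.8 and 31.2 against 18.2 and 18.2 FPKM (log2 0.84). Cdk13, at 6.43 and 6.03 against 3.31 and 3.02 FPKM, had a log2 difference of 0.80, and Cdk12, which shares its cyclin and its role in elongation, one of 0.38 that was negative with read totals (-0.034).

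Set beside their cyclins, the kinases gave the following values. Ccnh and Cdk7, Ccnc with Cdk8 and Cdk19, and Ccnt1 with Cdk9 were each higher on both sides with the authors' scaling (Cdk8 lost its call under 2 others), whereas Ccnk was not called while Cdk12 and Cdk13 were (Cdk12 with the authors' scaling only). Ccnt2, which also pairs with Cdk9, was called with the authors' scaling only and was negative with read totals (-0.062). Ccny and Cdk14 were higher under all 5 scalings, while Cdk16 was not called (log2 -0.07) and was lower under the other 4. Mnat1, the assembly subunit of the Ccnh and Cdk7 complex, was at 1.96 and 1.80 against 1.77 and 1.84 FPKM and was not called (log2 0.04). In the cell cycle pairs, Ccnd1 and Ccnd2 with Cdk4 and Cdk6 were higher on both sides with the authors' scaling. Ccnd1, Ccnd2 and Cdk4 had the call with that scaling only, Cdk6 also with trimmed mean of M-values, and Ccnd3 was not called. Ccne2 and Ccna2 were higher while their kinases Cdk2 and Cdk1 were not called. Differences between genes of a pair were not tested.

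**Figure D4:**
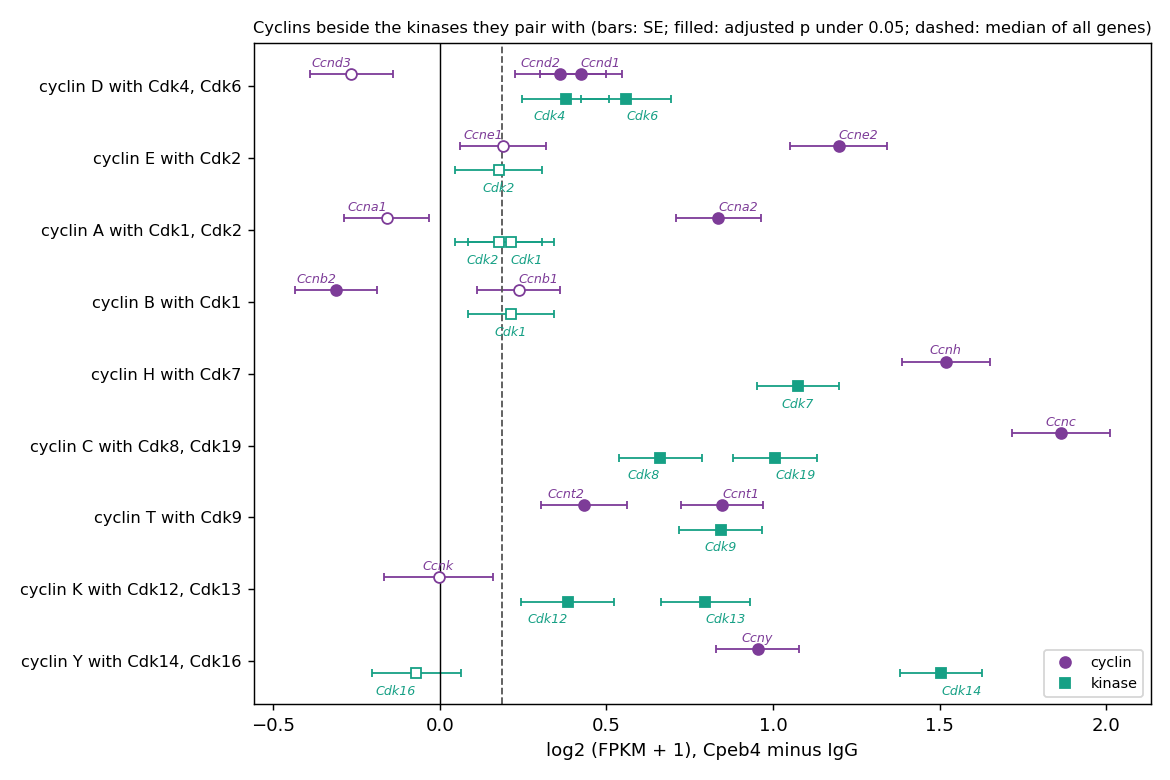
Log2(FPKM + 1) difference, Cpeb4 minus IgG, of cyclins (purple circles) above the kinases they pair with (green squares), with SE bars, filled where the limma adjusted p was under 0.05; the dashed line is the median of all genes tested. All points of the cyclin H and cyclin C rows lie at 0.66 or above, while the cyclin B row holds Ccnb2 at -0.31 and Ccnb1 and Cdk1 near the dashed line.

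Kinases outside these classes fell into separate patterns. Cdk14 (chr5:4803384-5380251), which cyclin Y recruits to the membrane in Wnt signalling, was at 61.7 and 68.9 FPKM with Cpeb4 and 22.3 and 22.4 with IgG (log2 1.50, SE 0.12, limma adjusted p = 1.23e-07). The IgG values were almost equal and the Cpeb4 values both near 3 times as high. Cdk17, a PCTAIRE kinase of neurons, was at 97.1 and 115 against 56.1 and 53.0 FPKM (log2 0.94, SE 0.13, limma adjusted p = 2.22e-05). Its relative Cdk16 was at 130 and 123 against 132 and 134 FPKM, one of the most abundant members, and was not called (log2 -0.07, limma adjusted p = 0.69). The remaining PCTAIRE kinase, Cdk18, was at 2.53 and 2.27 against 2.64 and 2.56 FPKM and was not called either. Cdk16 was called lower under the other 4 scalings and Cdk18 under 2, while Cdk17 was higher under all 5.

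Cdk5, the neuronal kinase activated by p35, was at 64.9 and 51.4 FPKM with Cpeb4 and 49.7 and 46.1 with IgG and was not called (log2 0.27, limma adjusted p = 0.0934); its value was negative under the other 4 scalings. The gene for p35, Cdk5r1, was at 60.8 and 60.4 against 40.9 and 48.1 FPKM and was called with the authors' scaling only (log2 0.44). Cdk10 and Cdk20 were not called, at log2 -0.19 and 0.08. Cdk10 was called lower under the other 4 scalings, and Cdk20 was negative under those 4 and called lower under 2. Cdk15, at 4 to 13 reads per library, was not tested.

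Of the inhibitors, Cdkn1b (p27Kip1, chr6:134920401-134925525), which holds neural progenitors out of the cycle, differed most. It was at 5.88 and 7.50 FPKM with Cpeb4 and 1.76 and 1.47 with IgG, from 821 and 678 against 232 and 182 reads. The ratio of the group means was 4.14, and on the FPKM + 1 scale the difference was 2.93-fold (log2 1.55, SE 0.15, limma adjusted p = 5.31e-07). Cdkn1a (p21), the other Cip/Kip inhibitor of the set, was at 8.54 and 6.38 against 6.76 and 6.23 FPKM. Its groups overlapped and it was not called (log2 0.16, limma adjusted p = 0.319), with a negative value under the other 4 scalings.

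The Ink4 inhibitors of Cdk4 and Cdk6 gave small differences. Cdkn2c was at 7.98 and 8.71 against 6.19 and 5.73 FPKM, called with the authors' scaling only (log2 0.42, SE 0.13, limma adjusted p = 0.0119) and negative with read totals (-0.028). Cdkn2d, the most abundant inhibitor transcript at 24.8 and 20.8 against 26.3 and 23.9 FPKM, overlapped between groups and was not called (limma adjusted p = 0.372), though it was called lower under the other 4 scalings. Cdkn2b was at 2.74 and 2.53 against 2.25 and 2.33 FPKM and was not called. Cdkn2a was between 0.0412 and 0.154 FPKM and was not tested. Cdkn3, a phosphatase that acts on CDKs, was at 0.968 and 0.671 against 1.31 and 1.17 FPKM; it entered the test through its IgG libraries alone and was not called (log2 -0.30, limma adjusted p = 0.161), though it was called lower under the other 4 scalings.

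The Cdkl kinases resemble CDKs in sequence. All 4 described here were higher with the authors' scaling, 3 of them under all 5 scalings (all genes 38.8% and 17.5%). Cdkl2 was at 30.4 and 38.8 FPKM with Cpeb4 and 14.6 and 14.1 with IgG (log2 1.21, SE 0.13, limma adjusted p = 1.51e-06). Cdkl4 was at 14.5 and 16.1 against 6.39 and 5.76 FPKM (log2 1.20), and Cdkl1 at 6.94 and 7.07 against 3.26 and 3.12 (log2 0.93). For these 3 genes each Cpeb4 library was more than 2 times each IgG library. Cdkl3 was at 8.64 and 8.71 against 7.04 and 5.92 FPKM (log2 0.38) and was negative with read totals; its span overlaps Ube2b, which had a log2 difference of 1.33.

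The differences were not equal in size in the 2 experiments. Of the 31 higher members, 27 had the larger log2 difference in experiment 2, a share that was not counted over all genes. The median difference of the tested members was 0.38 in experiment 1 and 0.53 in experiment 2, and that of all genes tested 0.20 and 0.18. Each experiment held 1 library per antibody, so a difference between experiments cannot be told from the spread of single libraries. The widest gaps between experiments were those of Ccnc (1.53 and 2.19), Ccne2 (0.89 and 1.51) and Ccng1 (1.65 and 2.24). All 33 called members had the same sign in both experiments, which the calls nearly fix, since they rest on the mean of these differences. Both Cpeb4 libraries were above both IgG libraries for 39 of the 50 tested members and below them for 7, a separation in either direction that 75.9% of all genes tested showed. Reads were ample for most members, with at least 100 reads in every library for 48 of 50.

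The authors' deposited table gave a comparable list by another model on counts. In the authors' deposited table, 27 of the 31 members called higher here also had an adjusted p under 0.05 with the same sign. Over all genes with an adjusted p in the authors' deposited table, 21.7% were called higher and 4.93% lower; these are shares of all genes, not of those called higher here. The 4 others in the authors' deposited table were Ccnj, Cdk12, Cdkn2c and Cdkl3, at adjusted p = 0.0956, 0.0791, 0.0966 and 0.137. Ccnb2 and Ccnf were not called in the authors' deposited table, at adjusted p = 0.233 and 0.0694. The authors' deposited table put Cdkn1b at a log2 fold change of 2.03 (SE 0.24), larger than on the FPKM + 1 scale, and Ccni at 2.30 (SE 0.15).

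Of the 50 tested members, 23 overlap no other RefSeq gene, and 13 of these were higher, among them Ccng1, Ccng2, Ccnh and Cdkn1b. Beside this, 31 of all 50 tested members and 38.8% of all genes tested, with or without an overlap, were higher. The remaining tested members share part of their span with another gene, which is a limit of an assay without strand. Ccnk overlaps Setd3, which was far more abundant at 27.1 to 35.2 FPKM. Cdk4 overlaps Tspan31 (35.7 to 38.5 FPKM, log2 0.01) and Ccna2 overlaps Exosc9 (8.22 to 10.1 FPKM, log2 -0.01), neither of which was called.

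Other genes of the pathway were described from a list of 35, all tested, of which 15 were higher, 6 lower and 14 not called. Over all genes tested 38.8% were higher and 11.6% lower, so the list's share of higher genes was near that of all genes. Of the 35, 7 were higher and 6 lower under all 5 scalings (all genes 17.5% and 11.6%), which is no check of the lower calls. All 3 pocket proteins, which restrain E2F factors, were higher under all 5 scalings: Rbl2 was at 26.9 and 30.4 against 10.8 and 9.98 FPKM (log2 1.38), Rb1 at 39.99 and 50.9 against 18.3 and 18.1 FPKM (2.40-fold on the FPKM + 1 scale) and Rbl1 at log2 1.12. Tfdp2, the dimer partner of E2F factors, was higher at log2 1.18, Med13, which anchors the cyclin C module to Mediator, at 1.15, and Skp2, which targets p27Kip1 for destruction, at 1.11. The largest negative differences were those of E2f1 (14.2 and 10.95 against 22.9 and 22.7 FPKM, log2 -0.82), Med12 (-0.63) and the Cdk1-inhibiting kinase Pkmyt1 (-0.46). E2f3 was higher at log2 0.98, so E2F members did not move one way.

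Some cyclin and CDK genes fall outside the symbol rule. Ccnyl1, a paralog of cyclin Y, was at 38.4 and 42.4 FPKM with Cpeb4 and 10.3 and 12.8 with IgG (log2 1.72, SE 0.12), more than Ccny itself. Cdk11b, the kinase of the L cyclins, was at 15.6 and 15.0 against 19.0 and 19.5 FPKM and was lower (log2 -0.31, limma adjusted p = 0.0414), while Ccnl1 and Ccnl2 were higher with the authors' scaling. Ccnjl was also lower, at log2 -0.37.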

How the data were processed

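RNA recovered from V-SVZ by anti-Cpeb4 or anti-IgG was sequenced in 4 libraries. The labels' protocols give the MAGNA RIP kit for immunoprecipitation, SMART-Seq v4 for cDNA and Nextera XT for libraries. STAR 2.6.0c, HTSeq 0.6.1p2, DESeq2 1.26.0 and the build mm10 appear in the submitters' processing notes without role or setting. Per the file headers, the authors deposited FPKM per library and a comparison holding a mean level (a signal: mean normalized reads), a log2 fold change and its error, a test score, a p-value and an adjusted one. The table held 0 columns of other samples.

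Genes with at least 1 FPKM in at least 2 libraries (15745) entered a two-sided limma fit (3.58.1, R 4.3.3, trended prior) of log2(FPKM + 1). Antibody was the effect and experiment a block; the labels number experiments across antibodies. Deviations of same-numbered libraries correlated at 0.0024 across genes, and 42 genes (0.267%), no member among them, differed between experiments. The block left 1 residual degree of freedom and the prior added 14.6. Whole reads, recovered from FPKM steps and the mean level (100% of values whole within 0.01 read), gave depths, other scalings and limma-voom. The chi-square showed that neither replicate pair was 1 library deposited under 2 names. Scripts were tested on simulated data. Low input amplification has no molecular identifiers, so reads are not independent molecules.

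All members could be named; pathway genes were named by the 3 largest changes each way, and further ones (Med13, Rbl1, Skp2, E2f3, Cdk5r1, Mnat1, Ccnyl1, Cdk11b, Ccnjl) after their values were seen. Members and lists were chosen with earlier results of these data known. Coordinates and overlaps come from RefSeq (GRCm38.p6), which matched all 54 members. Sequences of 3′ untranslated regions were not used here.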

Additional observations from a re-analysis of the deposited data

How the results depend on the processing

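With 2 libraries per antibody and 1 residual degree of freedom, calls lean on the spread pooled over genes. The count of higher members (31) was 30 with no replicate block, 22 with no filter on low values, 31 with a pseudocount of 0.1, a minimum of 5 FPKM or limma-voom, 19 with read totals or the upper quartile, 20 centred on the median, 22 with trimmed mean of M-values, and 20 to 33 over the fits that left out a library. The count of lower members (2) was 1 with no replicate block, where Ccnb2 was no longer called, 0 when no filter on low values was set (limma; 2 by unadjusted p under 0.05, as with limma-voom by adjusted p), 10 with read totals or the upper quartile, 8 centred on the median or with trimmed mean of M-values, and 0 to 5 over the fits that left out a library. The fits with a library left out had no block, and the complete pair alone supplied the spread. The gap between the medians of cell cycle and transcriptional cyclins (-0.39) was -0.51 with a minimum of 5 FPKM, which drops Ccnk, and -0.54 to -0.24 with a library left out. The block changed no call other than those of Ccnb2 and Ccnj.

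Signs that changed belonged to members with small differences, all on the log2(FPKM + 1) scale. With read totals the values were Ccnb1 -0.26, Ccnd1 -0.052, Ccnd2 -0.15, Ccne1 -0.25, Ccnl2 -0.069, Ccnt2 -0.062, Ccnj -0.072, Ccndbp1 -0.21, Cdk1 -0.24, Cdk2 -0.25, Cdk4 -0.13, Cdk12 -0.034, Cdk5 -0.24, Cdk20 -0.38, Cdkn1a -0.29, Cdkn2b -0.22, Cdkn2c -0.028 and Cdkl3 -0.08. With the upper quartile they were Ccnb1 -0.18, Ccnd2 -0.068, Ccne1 -0.18, Ccndbp1 -0.13, Cdk1 -0.16, Cdk2 -0.18, Cdk4 -0.051, Cdk5 -0.16, Cdk20 -0.31, Cdkn1a -0.21, Cdkn2b -0.16 and Cdkl3 -0.0061. With trimmed mean of M-values they were Ccnb1 -0.033, Ccne1 -0.048, Cdk1 -0.030, Cdk2 -0.057, Cdk5 -0.0091, Cdk20 -0.17, Cdkn1a -0.081 and Cdkn2b -0.056. Centred on the median they were Ccnb1 -0.088, Ccne1 -0.096, Ccndbp1 -0.041, Cdk1 -0.080, Cdk2 -0.10, Cdk5 -0.065, Cdk20 -0.22, Cdkn1a -0.13 and Cdkn2b -0.097. These scalings move all genes of a library together, which shifts every difference down. Ccnk turned positive at 0.0040 with a pseudocount of 0.1, 0.0095 with limma-voom, 0.015 without Cpeb4 replicate 1 and 0.19 without IgG replicate 2 (-0.20 without IgG replicate 1), and Cdkn1a ranged from -0.022 without Cpeb4 replicate 1 to 0.35 without Cpeb4 replicate 2.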
